A study of Mus musculus with 6 samples.

Results

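The vitamin D receptor axis comprises here 5 genes, the receptor Vdr, its retinoid X partners Rxra and Rxrb, and the enzymes Cyp27b1 and Cyp24a1. They were found as the probe sets annotated to exactly 1 gene where that gene was a member, which gave 9 probe sets of 34945 and 5 genes of 18193. Transcripts were measured in regulatory T (Treg) cells on 3 arrays from FoxP3hCD2.Batf+/+ mice and 3 arrays from FoxP3hCD2.Batf-/- mice, all on the C57BL/6 background. Both genotypes carry the human CD2 reporter of Foxp3, by which CD4+hCD2+ cells of lymph node and spleen were sorted and then lysed without culture or treatment. Batf, a basic leucine zipper factor, binds DNA together with Jun proteins, and the study compared Treg cells with and without it. The labels give no age or sex, do not say how Batf was deleted, and do not say whether each array came from its own mouse, so errors and p-values measure only the spread between these arrays, which may be technical. The genes were proposed with the genotype difference already known, so the values of the 5 members are a description and carry no test.

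Vitamin D becomes active in steps: it is hydroxylated first mainly in the liver, and the hydroxylase encoded by Cyp27b1 then makes the hormone calcitriol. Calcitriol binds the vitamin D receptor, a nuclear receptor that pairs with a retinoid X receptor on DNA and switches target genes on or off. Cyp24a1, which encodes the enzyme that breaks calcitriol down, is one of the targets most strongly induced by the receptor in many tissues. T cells raise Vdr expression when they are activated, and calcitriol is known to restrain inflammatory cytokines and to favour Treg cells.

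The promoter of Vdr is shown because Vdr was the member with the large difference between the genotypes. It is the stretch of 250 bases before the start of the gene, from RefSeq on GRCm38.p6, at chr15:97908297-97908546 on the minus strand, read in the direction of transcription. Capitals mark each match to GGGCGG, the core of the GC box bound by Sp1 family factors.
Vdr promoter: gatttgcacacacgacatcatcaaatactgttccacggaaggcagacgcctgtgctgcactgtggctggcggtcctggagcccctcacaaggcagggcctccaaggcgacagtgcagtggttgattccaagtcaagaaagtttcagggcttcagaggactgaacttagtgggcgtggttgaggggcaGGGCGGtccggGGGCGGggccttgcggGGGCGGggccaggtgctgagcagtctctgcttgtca
The 3 matches began 63, 52 and 36 bases before the start. GGGCGG, searched on both strands, occurred in 32.7% of 32851 mouse promoter windows of this length. TGANTCA, the AP-1 site that Batf with a Jun partner can bind, occurred in 6.75% of these windows and in 0 of the 6 windows listed for members. The 6 windows belong to 4 members, 2 each for Rxra and Rxrb, 1 for Vdr and 1 for Cyp27b1. A match or its absence describes only these letters in these windows.

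All levels are log2 values that were set, probe set by probe set, relative to the middle Batf+/+ array, so a value of 0 is the Batf+/+ median and not a lack of transcript. How abundant each transcript was, and whether it was above background, is not known from them. Array medians lay between -0.02 and 0.01. Batf was -0.13, 0.00 and 0.14 on the Batf+/+ arrays and -3.13, -3.16 and -2.37 on the Batf-/- arrays, so its single probe set followed the labels. The presence of Treg markers could not be checked on centred values. Their differences lay between -0.51 and 0.21. Of 6 measured Treg and CD4 T cell markers 0 passed the test in limma. Among them 2 had an unadjusted p below 0.05, against 1399 of all 18193 genes. In 4 of the 6 the arrays of the genotypes did not overlap, against 12.0% of all genes. The lowest was Ikzf2, named after its value was seen, at -0.51 ± 0.10 (SE, limma adjusted p = 0.0526), with all Batf-/- arrays below all Batf+/+ arrays. Il2ra went the other way, at 0.21 ± 0.07 (SE, adjusted p = 0.394), and its arrays did not overlap either. Foxp3, whose reporter was used for the sort, had a difference of -0.12 ± 0.08 (SE, adjusted p = 0.892), also without overlap. Cd4 was at 0.01, Cd3e at -0.09 and Ctla4 at -0.25. In whole-population RNA, fewer cells of a type and less RNA per cell cannot be told apart.

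Vdr, the receptor itself, had far higher values in Batf-/- Treg cells than in Batf+/+ Treg cells. Its log2 value, the mean of its 2 probe sets, was -0.03, 0.18 and 0.09 on the Batf+/+ arrays and 1.86, 1.86 and 2.20 on the Batf-/- arrays. All 3 Batf-/- arrays were high, and the lowest of them lay 1.67 log2 units above the highest Batf+/+ array. The group means were 0.08 ± 0.11 (SD, n = 3) and 1.97 ± 0.20 (SD, n = 3). This is a log2 difference of 1.89 ± 0.11 (SE), or 3.71-fold with a 95% interval from 3.12-fold to 4.42-fold. Only 3 of the 18193 genes had a larger increase. Leaving out any 1 array kept the difference between 1.78 and 1.95, and quantile normalization lowered it to 1.36.

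Both probe sets of Vdr gave the same picture. 1418175_at read 0.00, -0.04 and 0.19 on the Batf+/+ arrays and 2.06, 1.90 and 2.24 on the Batf-/- arrays. 1418176_at read -0.06, 0.41 and 0.00 against 1.65, 1.82 and 2.17. The genotypes were apart in both, by 2.02 ± 0.11 (SE) in the former and 1.77 ± 0.17 (SE) in the latter. The latter spread more within both genotypes, with SDs of 0.25 and 0.27 against 0.12 and 0.17 (n = 3 each). Arrays with the same number in their titles, which deviated together across genes, differed by 1.89, 1.68 and 2.11 for numbers 1, 2 and 3.

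**Figure D1:**
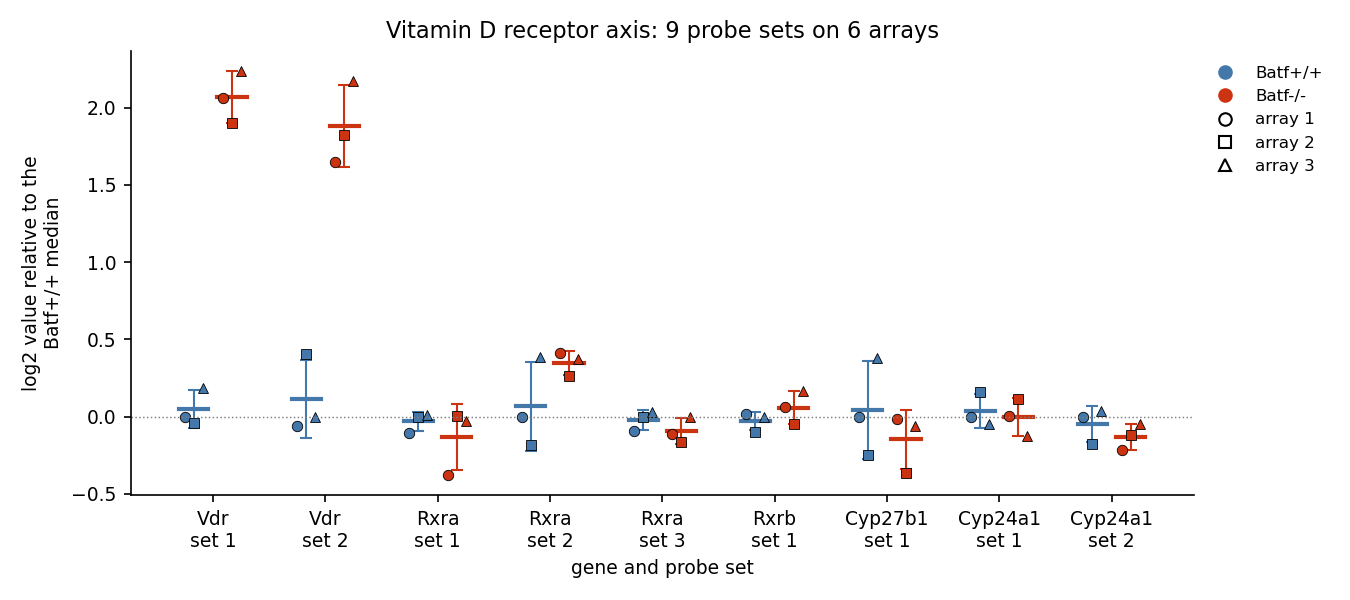
Log2 values of the 9 probe sets of the vitamin D receptor axis relative to the Batf+/+ median (y axis) by gene and probe set (x axis). Symbols are single arrays, bars the mean of 3 arrays and whiskers the SD; for both Vdr probe sets the Batf-/- arrays lie between 1.65 and 2.24 and the Batf+/+ arrays between -0.06 and 0.41, while the genotypes overlap in the other probe sets.

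Rxra and Rxrb encode the retinoid X receptors that the vitamin D receptor needs as partners on DNA and that also pair with many other nuclear receptors. Rxra, the mean of 3 probe sets, was -0.07, -0.06 and 0.14 in Batf+/+ cells and -0.03, 0.04 and 0.12 in Batf-/- cells. The genotypes overlapped, and arrays of the same number differed by 0.04, 0.10 and -0.03. The difference was 0.04 ± 0.09 (SE) on the log2 scale, with an interval from 0.895-fold to 1.17-fold. Rxra probe sets did not point 1 way: 1425762_a_at had a difference of -0.10 ± 0.12 (SE) and 1454773_at one of -0.07 ± 0.08 (SE), while 1430497_at had one of 0.28 ± 0.14 (SE). The last of these read 0.00, -0.19 and 0.38 in Batf+/+ cells against 0.41, 0.26 and 0.38 in Batf-/- cells, where Batf+/+ array 3 lay among the Batf-/- arrays. Taking the median of the probe sets instead of the mean turned the Rxra difference to -0.07, and it was -0.0007 without Batf-/- array 3.

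Rxrb has 1 probe set, which read 0.01, -0.10 and 0.00 in Batf+/+ cells and 0.06, -0.05 and 0.17 in Batf-/- cells. These values overlapped too, with a log2 difference of 0.09 ± 0.08 (SE) and an interval from 0.932-fold to 1.21-fold. Leaving out Batf-/- array 3 gave 0.03, and leaving out Batf-/- array 2 gave 0.14. Arrays of the same number differed by 0.05, 0.05 and 0.17.

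Cyp27b1, which encodes the enzyme that makes calcitriol, read 0.00, -0.25 and 0.38 on the Batf+/+ arrays and -0.02, -0.37 and -0.06 on the Batf-/- arrays. The genotypes overlapped, with an SD of 0.32 in Batf+/+ and 0.19 in Batf-/- cells. Arrays of the same number differed by -0.02, -0.12 and -0.44. Its log2 difference was -0.19 ± 0.16 (SE), with an interval from 0.683-fold to 1.12-fold, the widest log2 interval of the 5 members (-0.55 to 0.17). With the number as a replicate block its SE was 0.09. Batf+/+ array 3 was the highest, and the difference lay between -0.34 and -0.02 over all the alternative settings.

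Cyp24a1, the enzyme of calcitriol breakdown and a standard readout of receptor activity, read 0.00, -0.01 and -0.01 in Batf+/+ cells and -0.11, 0.00 and -0.09 in Batf-/- cells. Batf-/- array 2 lay among the Batf+/+ arrays. The log2 difference was -0.06 ± 0.07 (SE), with an interval from 0.857-fold to 1.07-fold. The narrow Batf+/+ spread of the gene mean hides probe sets that offset each other: 1418866_at read 0.00, 0.16 and -0.05, and 1418867_at read 0.00, -0.18 and 0.04. Arrays of the same number differed by -0.11, 0.01 and -0.08 in the gene mean. The differences of the probe sets were -0.04 ± 0.10 (SE) and -0.08 ± 0.09 (SE).

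Thus 1 of the 5 members, Vdr, had arrays that did not overlap between genotypes, and 12.0% of all genes had such arrays, a share given only as background since the members were chosen on this contrast. By rank of the difference from highest to lowest among 18193 genes, Vdr was at 4, Rxrb at 3757, Rxra at 6727, Cyp24a1 at 13620 and Cyp27b1 at 17121. A difference larger in size than that of Rxra was found in 70.1% of genes, than that of Cyp24a1 in 53.1%, than that of Rxrb in 39.0% and than that of Cyp27b1 in 11.1%.

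**Figure D2:**
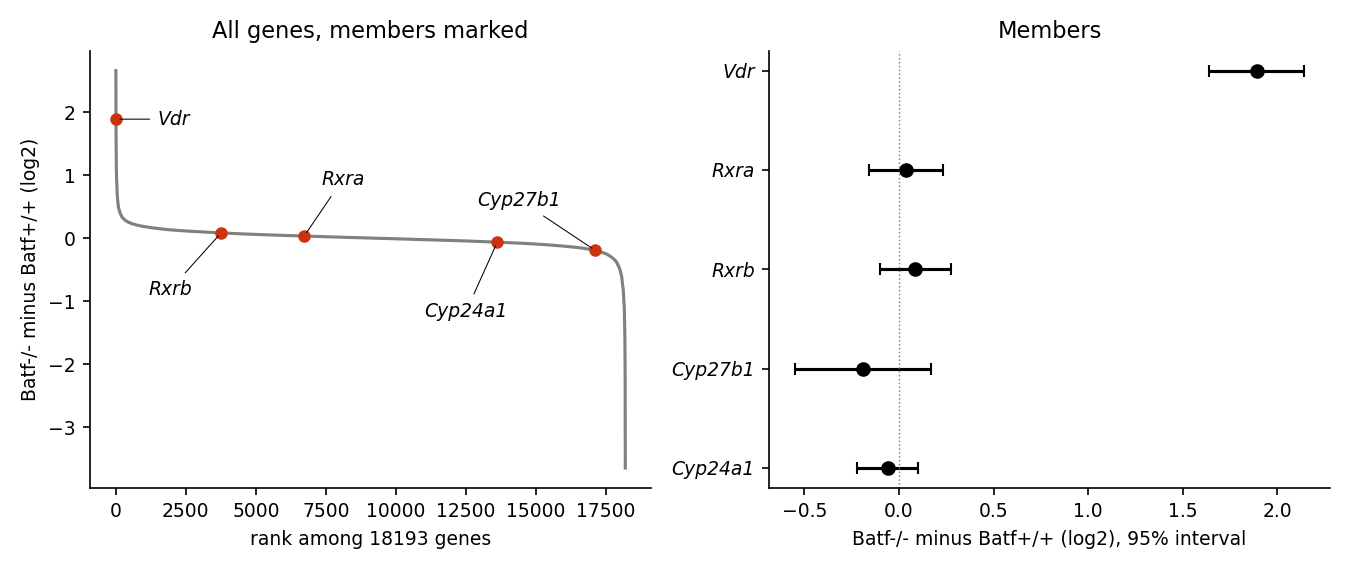
Left, the log2 difference Batf-/- minus Batf+/+ (y axis) of 18193 genes by rank (x axis), with the members in red; right, the differences of the members (points) with 95% intervals (bars). Vdr lies at 1.89 at the upper end and the other members between -0.19 and 0.09, with the intervals given as a description.

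Markers of other cell types that a sort could carry along were compared beside Vdr, which B cells, macrophages and epithelial cells can express too. The mean of 5 measured B cell markers was -0.07 to 0.06 on the Batf+/+ arrays and 0.07, 0.07 and 0.57 on the Batf-/- arrays, with the high value on Batf-/- array 3, where Vdr was also highest. Cd22, an inhibitory B cell receptor singled out after its values were seen, carried most of it, at 0.52, 0.43 and 1.76 on the Batf-/- arrays. Its difference between the genotypes was 0.90. The differences of Cd79a and Ms4a1 were 0.16 and 0.23, while those of Cd79b and Pax5 were -0.01 and -0.0035. In limma 0 of the 5 B cell markers passed (1 had an unadjusted p below 0.05), and the median of their differences was 0.16. Over all genes 1.14% passed, and 1399 of 18193 had an unadjusted p below 0.05. Macrophage and monocyte markers averaged -0.18 to 0.32 on the Batf-/- arrays and -0.05 to 0.10 on the Batf+/+ arrays, dendritic cell markers 0.02 to 0.11 and -0.13 to 0.11, and CD8 T and NK cell markers 0.06 to 0.40 and -0.09 to 0.12. The macrophage and the CD8 T and NK means were also highest on Batf-/- array 3, at 0.32 and 0.40. Of 6 macrophage, 5 dendritic cell and 5 CD8 T and NK cell markers 0 passed in limma (0, 1 and 2 had an unadjusted p below 0.05). Nkg7 and Eomes, named after their values were seen, read 0.56, 0.54 and 1.10, and 0.10, 0.20 and 0.84 on the Batf-/- arrays. In both the genotypes did not overlap, as in 12.0% of all genes. Cd8a and Cd8b1 differed by 0.01 and 0.04, and Ncr1 by -0.15. Of 6 epithelial markers 1 passed and was lower, Epcam, an adhesion molecule named after its value was seen, at -0.53 ± 0.08 (SE, limma adjusted p = 0.0119), and of 6 stromal markers 0 passed (0 with an unadjusted p below 0.05). The part of these cells in the Vdr values was not tested. Without Batf-/- array 3 the Vdr difference was 1.78.

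The genes whose 6 array values lay closest to those of Vdr were Gbp2b, Klk1b27, Gja1, E330021D16Rik and Tdgf1. Closeness was the root mean square distance over the 6 arrays, on which a gene at 0 on every array would be 1.40 from Vdr. Gbp2b, an interferon-inducible guanylate-binding protein, was nearest at a distance of 0.15 (Pearson r = 0.99 over the 6 arrays, as a description). It read 0.03, -0.02 and 0.00 on the Batf+/+ arrays and 2.12, 1.73 and 2.21 on the Batf-/- arrays. As with Vdr, the Batf-/- arrays were all high and array 3 was the highest. Klk1b27, a kallikrein protease, lay at a distance of 0.25, and its Batf-/- arrays spread from 1.33 to 2.23. Gja1, a gap junction protein, followed at 0.31. Its Batf-/- arrays ran the other way, with 2.28 on array 1 and 1.61 on array 3. E330021D16Rik lay at 0.32 and Tdgf1, a Nodal co-receptor, at 0.33. These genes and Vdr share the same 6 arrays, and a large genotype difference alone brings a gene near to Vdr on this measure.

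**Figure D3:**
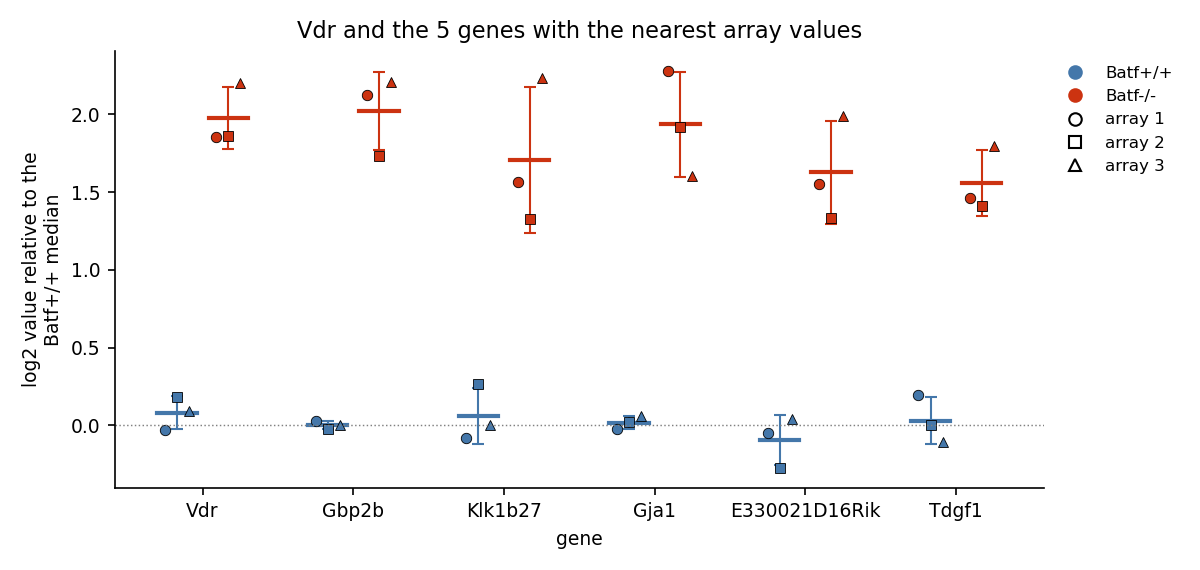
Log2 values relative to the Batf+/+ median (y axis) of Vdr and its 5 nearest genes (x axis). Symbols are single arrays, bars means of 3 arrays and whiskers SDs; in each gene the Batf-/- arrays lie between 1.33 and 2.28, and the Batf+/+ arrays between -0.27 and 0.26.

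The rest of the pathway was read from 6 lists with 79 genes, of which 70 were measured. The lists were drawn up with earlier results of these data known, so their counts beside those of all genes are a description. In the limma test over all 18193 genes 4 of these 70 passed at an adjusted p below 0.05. Of those 4, Pparg and Il21 rose and Cldn12 and Tnfsf11 fell in Batf-/- cells. The median difference of the 70 genes was 0.00, and 35 of them were above 0. Over all genes 1.14% were called, 0.313% higher and 0.830% lower, and the median difference was 0.00 as well. An unadjusted p below 0.05 in limma was found in 10 of the 70 genes and in 1399 of all 18193. The arrays did not overlap in 19 of the 70 genes, against 12.0% of all genes. Called genes over the whole array numbered 57 higher and 151 lower, and the replicate block gave 91 higher. They numbered 31 and 78 without Batf+/+ array 1, and 32 and 73 without Batf+/+ array 2. Without Batf+/+ array 3 there were 32 higher, without Batf-/- array 1 36 higher, and without Batf-/- array 2 94 lower.

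**Figure D4:**
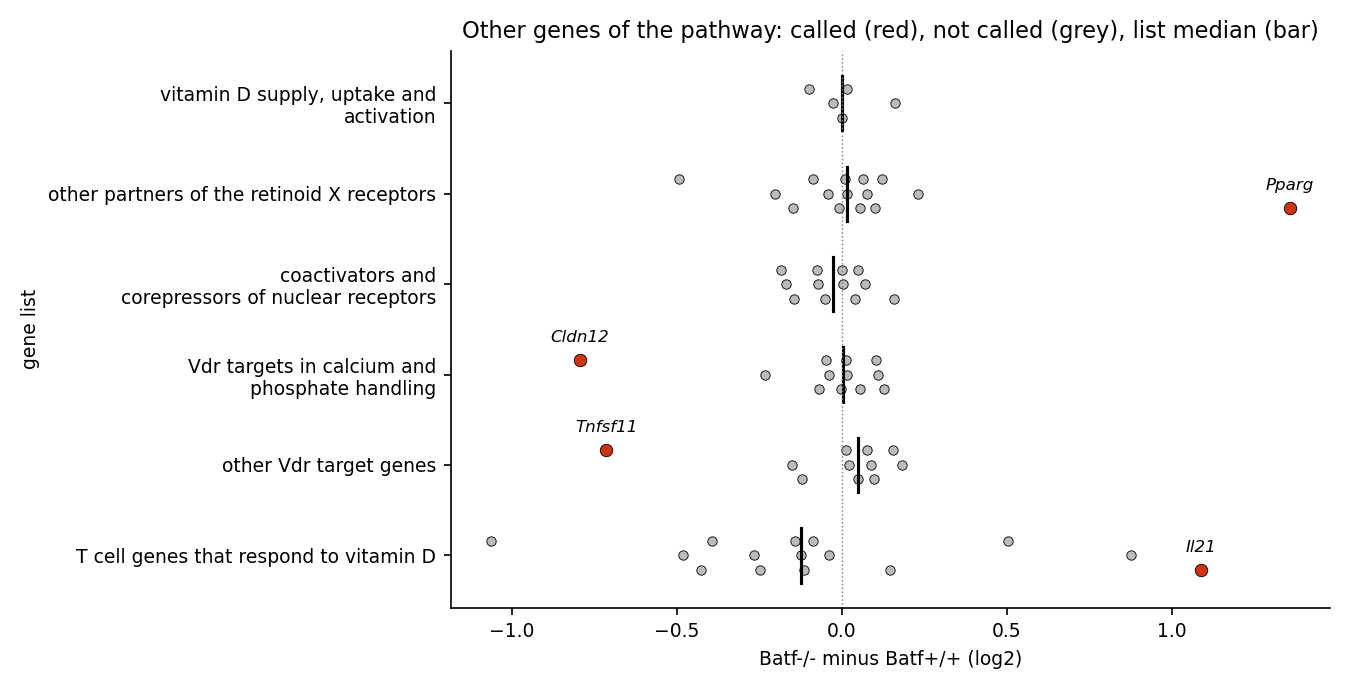
Log2 difference Batf-/- minus Batf+/+ (x axis) of the 70 measured genes in 6 lists (y axis). Points are genes, red where called in limma, and black bars are list medians; Pparg and Il21 lie on the right at 1.36 and 1.09, Cldn12 and Tnfsf11 on the left at -0.79 and -0.71, and the list medians lie between -0.12 and 0.05.

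Genes that supply vitamin D and bring it into cells lay near 0, and 0 of 5 measured members passed in limma (0 with an unadjusted p below 0.05). Their median difference was 0.00. Cubn, an endocytic receptor for the vitamin D binding protein in the kidney, had the largest difference at 0.16 ± 0.07 (SE, limma adjusted p = 0.667), with arrays at -0.07, -0.05 and 0.02 against 0.09, 0.18 and 0.11. It came from 1 of its 2 probe sets, at 0.31, whose suffix marks shared sequence, and the other was at 0.01. Dhcr7, which draws the precursor of vitamin D into cholesterol, had one of -0.10 ± 0.07 (SE, adjusted p = 0.943). Cyp27a1, a sterol hydroxylase that can act on vitamin D, had one of 0.02 ± 0.08 (SE, adjusted p = 1).

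Other nuclear receptors that pair with retinoid X receptors included 1 gene that rose and 0 that fell among 15 measured, with 2 at an unadjusted p below 0.05. Pparg, a fatty acid receptor that Treg cells of fat depend on, read -0.30, 0.00 and 0.16 in Batf+/+ cells and 1.19, 1.14 and 1.59 in Batf-/- cells. It rose 2.56-fold, by 1.36 ± 0.15 on the log2 scale (SE, limma adjusted p = 0.00323), with all Batf-/- arrays above all Batf+/+ arrays. Its only probe set carries a suffix that marks sequence shared between transcripts. Thra, a thyroid hormone receptor, had a difference of -0.20 ± 0.08 (SE, adjusted p = 0.546), and Nr1h4, the bile acid receptor, one of 0.23 ± 0.13 (SE, adjusted p = 0.852). Nr4a2, an orphan receptor of the early activation response chosen after its values were seen, had a difference of -0.49 ± 0.38 (SE, adjusted p = 0.949), which passed with the replicate block (adjusted p = 0.0343). The list median was 0.02.

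Coactivators and corepressors, the proteins through which nuclear receptors act on chromatin, gave 0 calls of 12 measured in limma (0 with an unadjusted p below 0.05) and a median of -0.03. Ncoa3, a coactivator of the steroid receptor coactivator family, had a difference of 0.16 ± 0.07 (SE, adjusted p = 0.680), and its relative Ncoa1 one of -0.15 ± 0.08 (SE, adjusted p = 0.816). Crebbp, a histone acetyltransferase, had one of -0.17 ± 0.13 (SE, adjusted p = 0.954), which moved to -0.31 when Batf-/- array 1 was left out, to -0.04 when Batf-/- array 2 was, and to -0.04 with quantile normalization. The 12 genes lay between -0.18 and 0.16.

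Targets of the vitamin D receptor known from calcium and phosphate handling in gut and kidney gave 1 lower gene and 0 higher genes of 12 measured, with a median of 0.00. Cldn12, a tight junction protein that calcitriol induces in gut epithelium, read 0.04, -0.02 and 0.01 in Batf+/+ cells and -0.81, -1.02 and -0.53 in Batf-/- cells. It fell 1.73-fold, the log2 difference being -0.79 ± 0.12 (SE, limma adjusted p = 0.0138) and 2 probe sets at -0.71 and -0.88. The call was lost without Batf+/+ array 1, 2 or 3 (adjusted p = 0.0752, 0.0648 and 0.0567). Atp2b1, a calcium pump of the plasma membrane, had a difference of -0.23 ± 0.17 (SE, adjusted p = 0.932), which moved to -0.45 when Batf-/- array 1 was left out and to -0.08 when Batf-/- array 3 was. Slc8a1, a sodium and calcium exchanger, had one of 0.10 ± 0.08 (SE, adjusted p = 0.949).

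Targets known from bone, blood and other tissues gave 1 lower gene and 0 higher genes of 11 measured, with a median of 0.05. Tnfsf11, the cytokine RANKL that drives osteoclast formation and that calcitriol induces in bone cells, read 0.15, 0.00 and -0.08 in Batf+/+ cells and -0.71, -0.83 and -0.53 in Batf-/- cells. It fell 1.64-fold, the log2 difference being -0.71 ± 0.10 (SE, limma adjusted p = 0.0107) and both probe sets at -0.71. Without Batf+/+ array 1 or 2 the adjusted p was 0.0556 and 0.0558. Fbp1, an enzyme of gluconeogenesis, had a difference of 0.18 ± 0.09 (SE, adjusted p = 0.766), and Thbd, the anticoagulant receptor thrombomodulin, one of 0.15 ± 0.08 (SE, adjusted p = 0.791).

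T cell genes that have been described to respond to calcitriol spread most widely, from -1.06 to 1.09, with a median of -0.12. Among 15 measured 1 was higher, 0 were lower and 6 had an unadjusted p below 0.05, against 1399 of all 18193 genes. Like the other lists, this one was drawn up with earlier results of these data known. The cytokine gene Il21, typical of follicular helper T cells, read -0.06, 0.29 and 0.05 in Batf+/+ cells and 1.20, 1.24 and 1.10 in Batf-/- cells. It rose 2.12-fold, by 1.09 ± 0.10 on the log2 scale (SE, limma adjusted p = 0.00138), although its probe sets differed, at 1.86 and 0.32. Ccr10, a chemokine receptor for homing to skin, had a difference of -0.48 ± 0.10 (SE, adjusted p = 0.0636), and Ccr9, which guides T cells to the small intestine, one of -0.43 ± 0.08 (SE, adjusted p = 0.0553). In both the genotypes did not overlap. Both passed with array weights (adjusted p = 0.0448 for Ccr10 and 0.0455 for Ccr9) and neither with the replicate block (0.0825 and 0.0743). The Ccr9 value came from 3 probe sets whose suffix marks shared sequence, at -0.71, -0.67 and -0.62. Without all 3 probe sets the Ccr9 difference was -0.07 (adjusted p = 1). Il10, an inhibitory cytokine chosen after its values were seen, had a difference of 0.88 ± 0.30 (SE, adjusted p = 0.396), which passed with the replicate block (adjusted p = 0.0307). Because of that choice the latter p-value is a description and not a test. The Il10 arrays overlapped, with Batf+/+ array 2 at 0.20 and Batf-/- array 3 at 0.13.

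**Figure D5:**
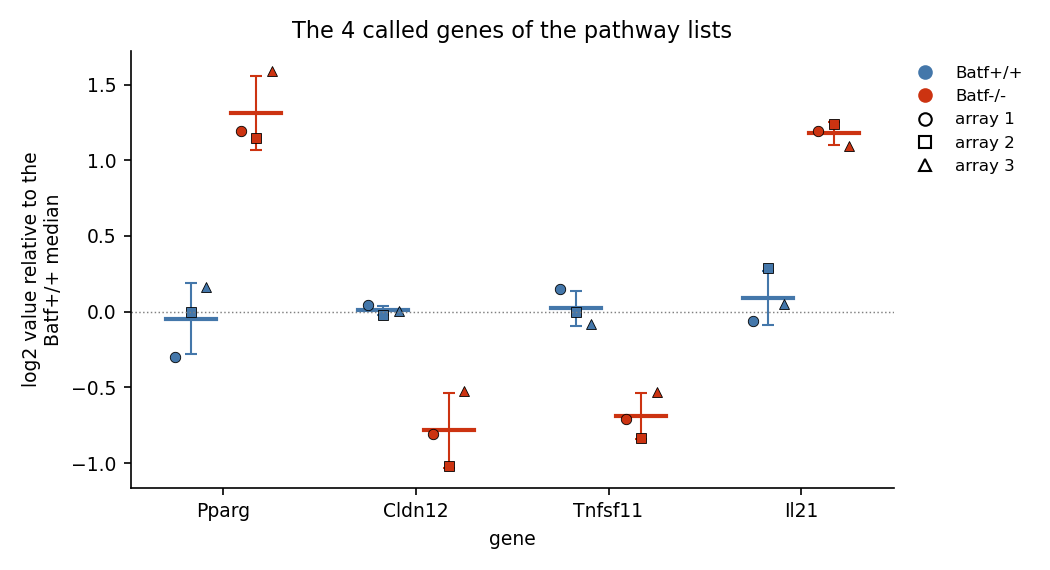
Log2 values relative to the Batf+/+ median (y axis) of the 4 called pathway genes (x axis). Symbols are single arrays, bars means of 3 arrays and whiskers SDs; Batf-/- arrays of Pparg and Il21 lie between 1.10 and 1.59 and those of Cldn12 and Tnfsf11 between -1.02 and -0.53.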

How the data were processed

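RNA of 6 Treg samples was labelled with a kit primed at the 3' end and hybridised to expression arrays, per the labels' protocols. The authors' deposited values, taken as log2, come from RMA, as the submitters' processing notes state without a version or log base. In all 45101 probe sets the middle Batf+/+ value is exactly 0, a centring that no label describes. It keeps differences between genotypes and removes absolute levels, so no filter on low values was possible, and the number of arrays limits the precision.

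Probe sets with 1 gene in the platform annotation (34945 of them) were averaged per gene, matched by Entrez identifier (34741 found in RefSeq, GRCm38.p6). Genotypes were compared with limma 3.58.1 in R 4.3.3 (lmFit, eBayes, genotype as the only term, Benjamini-Hochberg over 18193 genes, called at an adjusted p below 0.05). The fit was tried on simulated normal data. The simulated arrays were independent, so that trial cannot show how the fit behaves where arrays of the same number deviate together. Members and lists were chosen with earlier results of these data known. By rule, the members, Batf, each list's called genes and its 3 smallest p-values, and the 5 genes nearest to Vdr are named; any other gene was picked once its values had been seen. The alternatives were the replicate block, 2 normalizations, array weights, 2 choices of probe sets, and leaving out each array. The same numbers occur in both genotypes' titles. Across genes, the deviations from the group mean of arrays 1, 2 and 3 correlated between genotypes at 0.407, 0.154 and 0.413. Each was above the limit of 0.1, so arrays of the same number were also compared as pairs, though the labels do not say what the numbers mark. The main fit has no term for the number, so its SEs, intervals and p-values leave this pairing out, and only the replicate block takes it in.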

Additional observations from a re-analysis of the deposited data

How the results depend on the processing

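The Vdr difference was positive under all 12 alternatives, between 1.36 (quantile normalization) and 1.95. Quantile normalization forces the Batf+/+ arrays, narrowed by the centring, onto 1 distribution with the Batf-/- arrays, and it gave 23 higher and 53 lower genes over the array, with 1 higher and 0 lower among the pathway genes. The replicate block left the Vdr difference at 1.89 (SE 0.09), gave 91 higher genes over the array and changed no call of a pathway gene other than Nr4a2 and Il10. Array weights gave 5 lower pathway genes, namely Cldn12, Tnfsf11, Ccr9, Ccr10 and Il4. Il4, a T cell cytokine named after its values were seen, had a main difference of -0.39 ± 0.10 (SE, limma adjusted p = 0.144), without overlap of its arrays. It passed with array weights (adjusted p = 0.0395) and without Batf-/- array 1 (adjusted p = 0.0402). Leaving out probe sets of shared sequence, also those shared only within the same gene, gave 1 higher, since Pparg then has no probe set. Without single arrays, called genes ranged from 31 to 51 higher and from 73 to 141 lower, and lower pathway genes from 0 to 3. After quantile normalization the adjusted p was 0.0567 for Cldn12, 0.0868 for Tnfsf11 and 0.139 for Il21; the cause was not tested. Among named genes that were not called, Cyp27a1, Dhcr7, Fbp1, Ncoa1, Nr1h4 and Slc8a1 also moved by over 1.5 times without a single array. Signal over background is unknown, so a dim probe set and an unchanged gene cannot be told apart for Rxra, Rxrb, Cyp27b1 and Cyp24a1.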

Other observations

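Some genes of the pathway lists followed the array number rather than the genotype, and were chosen after their values were seen. Nr4a1, an orphan receptor induced early by T cell receptor signals, read 0.00, 0.08 and -0.91 on Batf+/+ arrays 1, 2 and 3 and 0.11, -0.04 and -0.87 on Batf-/- arrays 1, 2 and 3. Gadd45a, a gene of the stress response, read 0.02, 0.00 and -0.70 against 0.14, -0.01 and -0.75. Both were low on the arrays numbered 3 in each genotype, and their genotype differences were 0.01 ± 0.31 (SE, limma adjusted p = 1) and 0.02 ± 0.25 (SE, adjusted p = 1).

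Cxcr3, a chemokine receptor of Th1 cells also chosen after its values were seen, was low on Batf-/- arrays 1 and 2 (-1.43 and -1.69) and at -0.29 on Batf-/- array 3, next to -0.24 on Batf+/+ array 3. Its log2 difference was -1.06 ± 0.30 (SE, limma adjusted p = 0.249), and -1.49 (adjusted p = 0.00094) without Batf-/- array 3. Cxcr3 passed in no other setting. The array left out there was the one that lay apart from the other Batf-/- arrays, so that p-value is a description and not a test.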
